A study of Mus musculus with 6 samples.

Results

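The TAK1 and IKK kinase complexes were followed here through 8 genes, taken as the rows of the deposited table whose gene name equals Map3k7, Tab1, Tab2, Chuk, Ikbkb, Ikbkg, Map3k14 or Map3k8. All 8 were found among the 10539 genes listed, each in 1 row, and all 8 had a mean of at least 1 FPKM (fragment counts divided by gene length and by library size) over the 6 libraries, the level required for testing. The cells were alveolar macrophages, the resident phagocytes of the airspace, from the lungs of C57BL/6 mice. All 6 libraries come from cells that overexpressed the transcription factor C/EBPβ: 3 are labelled CEBPβ, and 3 labelled CEBPβ-A had also been treated with an adenovirus for A20 (A20-Ad). A20, the product of Tnfaip3, is a ubiquitin-editing enzyme that restrains the pathway to which TAK1 and IKK belong. The labels do not state whether the CEBPβ cells received another virus, how C/EBPβ was overexpressed or how old the mice were, and cells with normal C/EBPβ were not analysed here. Nor do they say that replicates come from separate animals or cultures, so a p-value sets a difference against a spread that may be technical.

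As background, Toll-like, IL-1 and TNF receptors build chains of ubiquitin on adaptor proteins, and these chains gather 2 kinase complexes. The first is TAK1 (Map3k7) with its activator TAB1 (Tab1) and the chain-reading subunit TAB2 (Tab2). The other is the IκB kinase: its catalytic subunits IKKα (Chuk) and IKKβ (Ikbkb) are held by the regulatory subunit NEMO (Ikbkg). TAK1 phosphorylates IKKβ and also starts the p38 and JNK cascades, and active IKK marks IκB proteins for destruction, which frees NF-κB. NIK (Map3k14) activates IKKα in the non-canonical branch, and TPL2 (Map3k8) is released by IKK from its holding protein p105 (Nfkb1) and starts the ERK cascade. In macrophages these kinases link microbial sensing to the transcription of cytokines and chemokines.

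The libraries carried the transcripts of alveolar macrophages. All 12 alveolar macrophage markers examined were listed, led by Chil3 and Ear2, with summed levels of 7792 to 8545 FPKM in CEBPβ and 8299 to 9316 in CEBPβ-A. None of the 10 T and NK cell or 6 B cell markers had a row in the table. A missing row does not show a low level, since the rule for listing genes was not given. The 1 listed dendritic cell marker of 6, Clec9a, reached at most 0.467 FPKM, and the 1 listed fibroblast or endothelial marker of 8, Pdgfra, at most 1.005 FPKM. Of 12 epithelial markers 5 were listed, led by Scgb1a1 and Cdh1, summing to 32.0 to 42.3 FPKM in CEBPβ and 35.8 to 70.0 in CEBPβ-A, the highest in CEBPβ-A replicate 3. Of 10 neutrophil markers 4 were listed, led by S100a8 and Csf3r, with sums of 216 to 266 FPKM in CEBPβ and 299 to 319 in CEBPβ-A, which did not overlap. S100a8 carried these sums, with 199 to 251 FPKM in CEBPβ and 286 to 303 in CEBPβ-A, while Csf3r overlapped between the groups (9.85 to 11.6 and 8.66 to 10.9 FPKM), as did Camp and Cxcr2. Of the monocyte and interstitial macrophage markers, C1qa was at 2.27 to 2.99 FPKM in CEBPβ and 1.62 to 2.04 in CEBPβ-A, without overlap, and C1qb at 0.892 to 1.57 and 0.707 to 1.08 FPKM, with overlap; these 2 were picked after their values were seen, and the summed level of that list is not reported here. The part of these cells in the results was not tested. CEBPβ-A replicate 3 stood apart on the first principal component of log2(FPKM + 1), with a score of 25.7 against −11.7 to −0.095 in the other 5 libraries. Tnfaip3 was not higher in CEBPβ-A (10.2 ± 4.53 against 15.2 ± 5.64 FPKM, SD, n = 3 each; limma adjusted p = 0.606), so transcript levels at the mouse gene do not show the delivery of A20, and directions are between libraries as labelled. In bulk RNA, fewer cells of a type and less RNA per cell cannot be told apart.

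None of the 8 kinase complex genes differed between CEBPβ-A and CEBPβ past the threshold (limma, Benjamini-Hochberg adjusted p under 0.05 over 9617 genes; 5 genes in all, 0.052% of those tested). At an unadjusted p under 0.05 there was 1 of 8, Map3k7, against 8.18% of all tested genes. Map3k7 was also the 1 gene of 8 whose groups did not overlap, lower in CEBPβ-A, where 8.86% of all tested genes did not overlap in that direction and 16.8% in either. A count of 1 in 8 is close to that background. The median log2 fold change (CEBPβ-A minus CEBPβ, on log2(FPKM + 1)) of the 8 was −0.085, beside −0.013 over all tested genes, with 5 of 8 negative. It ran from −0.12 to −0.024 with single libraries left out, the value nearest 0 being the one without CEBPβ replicate 1. The members' levels summed to 64.7, 66.1 and 57.02 FPKM in CEBPβ replicates 1, 2 and 3 and to 52.5, 58.8 and 56.4 in CEBPβ-A replicates 1, 2 and 3.

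**Figure D1:**
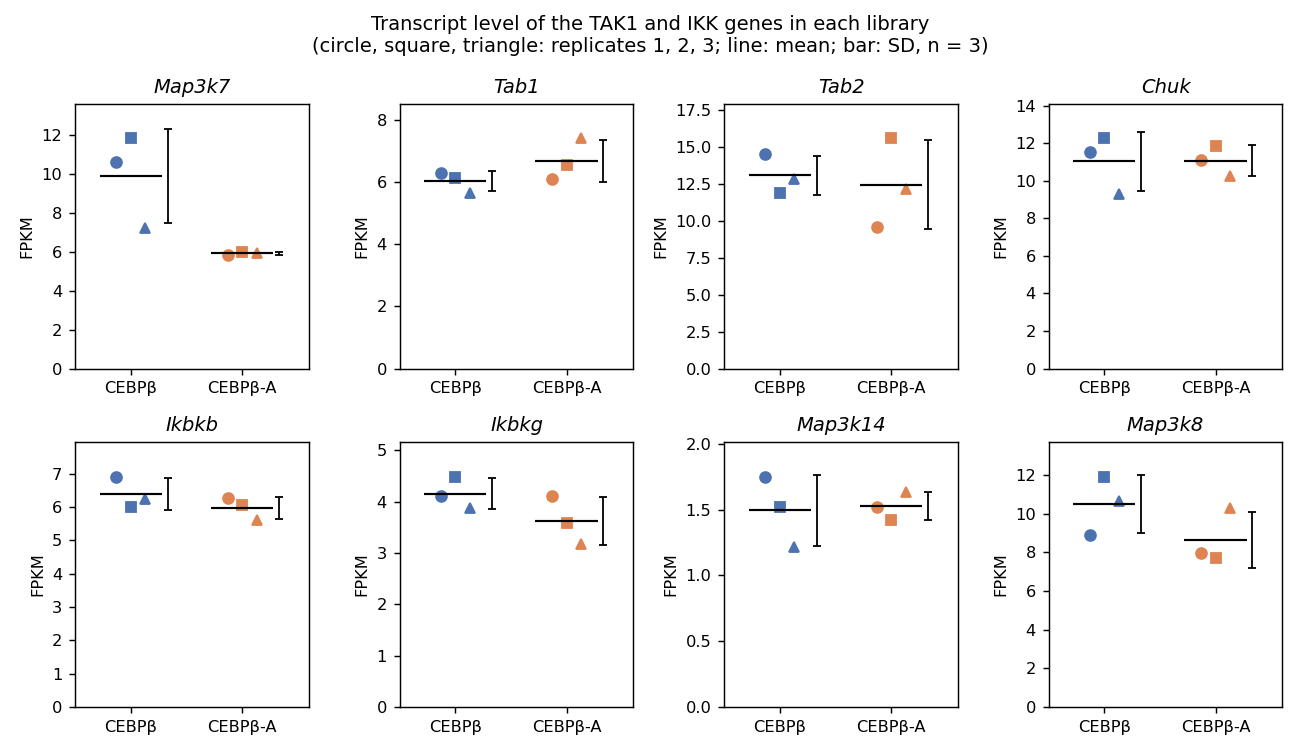
FPKM (vertical axis, from 0) of the 8 genes in the 3 CEBPβ and 3 CEBPβ-A libraries; symbols mark replicates 1 to 3, lines the group means and bars the SD (n = 3). The 3 CEBPβ-A libraries of Map3k7 lie between 5.83 and 6.01, below the 3 CEBPβ libraries, whereas the groups overlap for the other 7 genes.

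Map3k7, the gene of the kinase TAK1 (ENSMUSG00000028284.13, GRCm38 chromosome 4, 31964097 to 32023467, plus strand), had the largest difference among the 8. Its level was 10.6, 11.8 and 7.21 FPKM in CEBPβ replicates 1, 2 and 3. In CEBPβ-A replicates 1, 2 and 3 it was 5.83, 6.01 and 5.93 FPKM. The CEBPβ-A libraries thus stood almost level with each other, while the CEBPβ libraries were spread, with replicate 3 nearest to the other group. Means were 5.92 ± 0.0922 against 9.90 ± 2.40 FPKM (SD, n = 3 each), so the CEBPβ mean was 1.67-fold higher. The log2 fold change was −0.63 (SE 0.16, 95% interval −1.001 to −0.26 without adjustment), and it did not pass over all genes tested (limma adjusted p = 0.588). Without CEBPβ replicate 3 it was −0.82 (limma adjusted p = 0.105) and without CEBPβ replicate 2 it was −0.50 (limma adjusted p = 0.781). The difference was negative in all 17 alternatives run and passed in none of them.

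The sequences upstream of Map3k7 and of Chuk are printed because Map3k7 was the member whose groups separated and Chuk the member with the difference nearest to 0. Each run is 240 bases that end within 10 bases of the annotated first exon (RefSeq, GRCm38.p6), 5′ to 3′ on the gene's strand. Map3k7 is at chr4:31963857-31964096 on the plus strand and Chuk at chr19:44107488-44107727 on the minus strand. Capitals mark matches on either strand to the pattern TTNCNNNAA and to an NF-κB-like pattern, GGGNNNNNCC (N is any base). TTNCNNNAA is named by its letters only and does not stand for a C/EBP site.
Map3k7: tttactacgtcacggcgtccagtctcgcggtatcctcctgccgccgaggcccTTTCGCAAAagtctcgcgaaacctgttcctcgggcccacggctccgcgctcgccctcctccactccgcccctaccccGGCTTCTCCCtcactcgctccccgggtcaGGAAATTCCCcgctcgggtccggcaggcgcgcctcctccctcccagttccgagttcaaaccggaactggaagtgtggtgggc
Chuk: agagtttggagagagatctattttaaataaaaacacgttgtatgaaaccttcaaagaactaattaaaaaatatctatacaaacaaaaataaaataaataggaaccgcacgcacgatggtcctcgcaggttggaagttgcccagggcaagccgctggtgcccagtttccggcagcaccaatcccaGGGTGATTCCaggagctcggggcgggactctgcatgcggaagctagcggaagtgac
The Map3k7 run holds 1 match to TTNCNNNAA, TTTCGCAAA, at bases 53 to 61, counted from the first base printed. It also holds 2 NF-κB-like matches on the opposite strand, GGCTTCTCCC at 130 to 139 and GGAAATTCCC at 159 to 168. None of these overlap. The Chuk run holds 1 NF-κB-like match, GGGTGATTCC at 185 to 194, and no match to TTNCNNNAA. Among the other members searched, the run of Map3k14 also holds a match to TTNCNNNAA, and the runs of Ikbkg hold none. For Tab2 a match lies in a run inside the annotated gene (chr10:7953076-7953315, gene 7905653 to 7956230, minus strand). The Tab2 run across the start of the gene, chr10:7956134-7956373, holds none. The log2 fold changes of Tab2, Map3k14 and Ikbkg were −0.088, 0.023 and −0.16. Such short patterns are common. Among 32851 RefSeq promoter windows of the same length, 32.2% hold TTNCNNNAA and 44.2% the NF-κB-like pattern. G and C make up 66.7% of the Map3k7 run and 46.7% of the Chuk run. A match is a description of letters, and no binding was measured.

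Tab1, which encodes the subunit that switches TAK1 on (ENSMUSG00000022414.7, chromosome 15, 80133154 to 80161701), did not share the lower values of Map3k7. Its level was 6.30, 6.12 and 5.66 FPKM in CEBPβ replicates 1, 2 and 3, and 6.09, 6.56 and 7.41 in CEBPβ-A replicates 1, 2 and 3. The groups overlapped, with CEBPβ-A replicate 3 the highest of the 6. The log2 fold change was 0.13 (SE 0.096, 95% interval −0.097 to 0.35, limma adjusted p = 0.644).

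Tab2, which encodes the subunit that binds ubiquitin chains (ENSMUSG00000015755.16, chromosome 10, 7905653 to 7956230), had the widest spread of the 8 within CEBPβ-A. Its level was 9.61, 15.6 and 12.1 FPKM in CEBPβ-A replicates 1, 2 and 3, which hold the lowest and the highest of the 6 values. CEBPβ replicates 1, 2 and 3 had 14.5, 11.9 and 12.9 FPKM. The log2 fold change was −0.088 (SE 0.16, 95% interval −0.46 to 0.29, limma adjusted p = 0.855) and turned to 0.071 without CEBPβ-A replicate 1.

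Chuk and Ikbkb, the genes of the catalytic subunits IKKα and IKKβ, had differences near 0, smaller than the spread between libraries. Chuk (ENSMUSG00000025199.16, chromosome 19, 44073335 to 44107480) had 11.5, 12.3 and 9.28 FPKM in CEBPβ replicates 1, 2 and 3 and 11.1, 11.9 and 10.2 in CEBPβ-A replicates 1, 2 and 3. Its log2 fold change was 0.011 (SE 0.11, limma adjusted p = 0.977), with a 95% interval of −0.26 to 0.28, and the sign turned with 2 single libraries left out. Ikbkb (ENSMUSG00000031537.15, chromosome 8, 22659212 to 22706589) had 6.92, 5.99 and 6.24 FPKM in CEBPβ replicates 1, 2 and 3 and 6.26, 6.05 and 5.60 in CEBPβ-A replicates 1, 2 and 3. Its log2 fold change was −0.082 (SE 0.090, limma adjusted p = 0.738), with a 95% interval of −0.29 to 0.13. Over the 6 libraries, both groups together, Ikbkb varied least of the 8 genes (coefficient of variation 7.02%) and Map3k7 most (33.6%). These values include any difference between the groups. Within CEBPβ-A alone Map3k7 was at 5.92 ± 0.0922 FPKM (SD, n = 3).

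Ikbkg, the gene of the scaffold NEMO (ENSMUSG00000004221.16, chromosome X, 74393290 to 74453854), had 4.11, 4.49 and 3.88 FPKM in CEBPβ replicates 1, 2 and 3. CEBPβ-A replicates 1, 2 and 3 had 4.12, 3.58 and 3.17 FPKM. CEBPβ-A replicate 1 lay among the CEBPβ libraries and the other two below them. The log2 fold change was −0.16 (SE 0.11, 95% interval −0.41 to 0.086, limma adjusted p = 0.609). In the GENCODE M21 annotation Ikbkg shares 418 exonic bases with G6pdx on the opposite strand. The libraries were stranded per the labels, but whether counting used the strand is not given, so part of its level is uncertain.

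Map3k14, the gene of NIK (ENSMUSG00000020941.7, chromosome 11, 103219762 to 103267472), had the lowest level of the 8. Its values were 1.75, 1.52 and 1.21 FPKM in CEBPβ replicates 1, 2 and 3 and 1.52, 1.42 and 1.63 in CEBPβ-A replicates 1, 2 and 3, so the CEBPβ-A values lay inside the CEBPβ range. The log2 fold change was 0.023 (SE 0.11, 95% interval −0.22 to 0.27, limma adjusted p = 0.946). Its sign turned with 2 single libraries left out, and 135 of its exonic bases are shared with the transcript 1700028N14Rik on the same strand.

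Map3k8, the gene of TPL2 (ENSMUSG00000024235.10, chromosome 18, 4331327 to 4353015), had the second largest difference. It stood at 8.90, 11.9 and 10.7 FPKM in CEBPβ replicates 1, 2 and 3 and at 7.94, 7.68 and 10.3 in CEBPβ-A replicates 1, 2 and 3. CEBPβ-A replicates 1 and 2 lay below every CEBPβ library, and replicate 3 lay among them. Means were 8.63 ± 1.43 against 10.5 ± 1.51 FPKM (SD, n = 3 each), with a log2 fold change of −0.26 (SE 0.14, 95% interval −0.58 to 0.065, limma adjusted p = 0.589). The value was −0.38 without CEBPβ-A replicate 3 and −0.17 without CEBPβ replicate 2, and it did not pass in either.

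**Figure D2:**
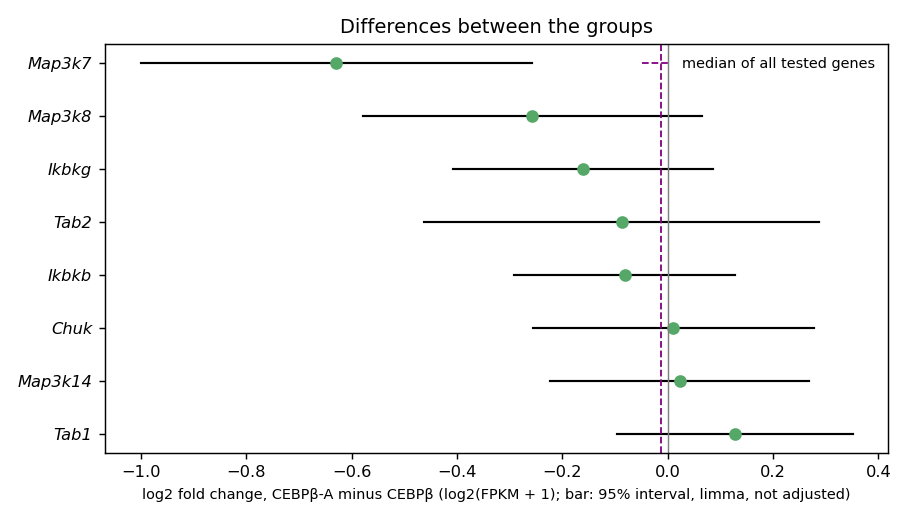
Log2 fold change (horizontal axis, CEBPβ-A minus CEBPβ, on log2(FPKM + 1)) of each gene, with its 95% interval from limma, not adjusted for the number of genes; the dashed line is the median of all tested genes. The interval of Map3k7, −1.001 to −0.26, lies below 0, and those of the other 7 genes hold 0.

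Since FPKM is scaled by gene length, the levels of the 8 transcripts can be set beside each other, as far as the authors' gene lengths fit the isoforms present. Mean levels over the 6 libraries ran from 12.8 FPKM for Tab2 and 11.1 for Chuk through 9.56 for Map3k8, 7.91 for Map3k7, 6.36 for Tab1 and 6.18 for Ikbkb to 3.89 for Ikbkg and 1.51 for Map3k14. From Tab2 down to Ikbkb each gene overlapped the next in range. Ikbkb was above Ikbkg and Ikbkg above Map3k14 in 6 of 6 libraries, with ranges that did not overlap. The members ranged from the 6.18th percentile of tested genes by level (Map3k14) to the 66.1st (Tab2). Within CEBPβ, replicate 3 was the lowest library for 5 of the 8 genes: Map3k7, Tab1, Chuk, Ikbkg and Map3k14.

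Ratios of FPKM within a library set the subunits of each complex against one another, free of any scaling of the whole library. The differences tested on log2(FPKM + 1) are not fully free of it, because of the added 1. The ratio of Map3k7 to Tab1 was 1.69, 1.94 and 1.27 in CEBPβ replicates 1, 2 and 3 and 0.957, 0.917 and 0.800 in CEBPβ-A replicates 1, 2 and 3. The transcript of the kinase was thus the more abundant in each CEBPβ library and the less abundant in each CEBPβ-A library. On log2(FPKM + 1) the difference was −0.76 (exact two-sided permutation p = 0.1, the smallest that 3 against 3 allows; 0.3 adjusted over 6 ratios). The ratio of Map3k7 to Ikbkb was 1.54, 1.98 and 1.16 in CEBPβ and 0.931, 0.994 and 1.06 in CEBPβ-A, again without overlap (difference −0.55, exact permutation p = 0.1, adjusted 0.3). These 2 ratios rest on the same Map3k7 values and are not separate evidence. With 3 libraries a group no ratio can pass 0.05.

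The other ratios had smaller differences, and their groups overlapped. Chuk exceeded Ikbkb by 1.49- to 2.05-fold in CEBPβ and 1.77- to 1.96-fold in CEBPβ-A, in 6 of 6 libraries (difference between groups 0.093 on the log2 scale, exact permutation p = 0.5). Ikbkg stood at 0.595 to 0.749 of the Ikbkb level in CEBPβ and at 0.567 to 0.658 in CEBPβ-A (difference −0.079, exact permutation p = 0.6). Tab2 exceeded Tab1 by 1.95- to 2.30-fold in CEBPβ and 1.58- to 2.38-fold in CEBPβ-A (difference −0.21, exact permutation p = 0.4). Map3k8 stood at 0.595 to 0.875 of the level of Nfkb1, the gene of its holding protein p105, in CEBPβ and at 0.594 to 0.908 in CEBPβ-A (difference −0.052, exact permutation p = 1).

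**Figure D3:**
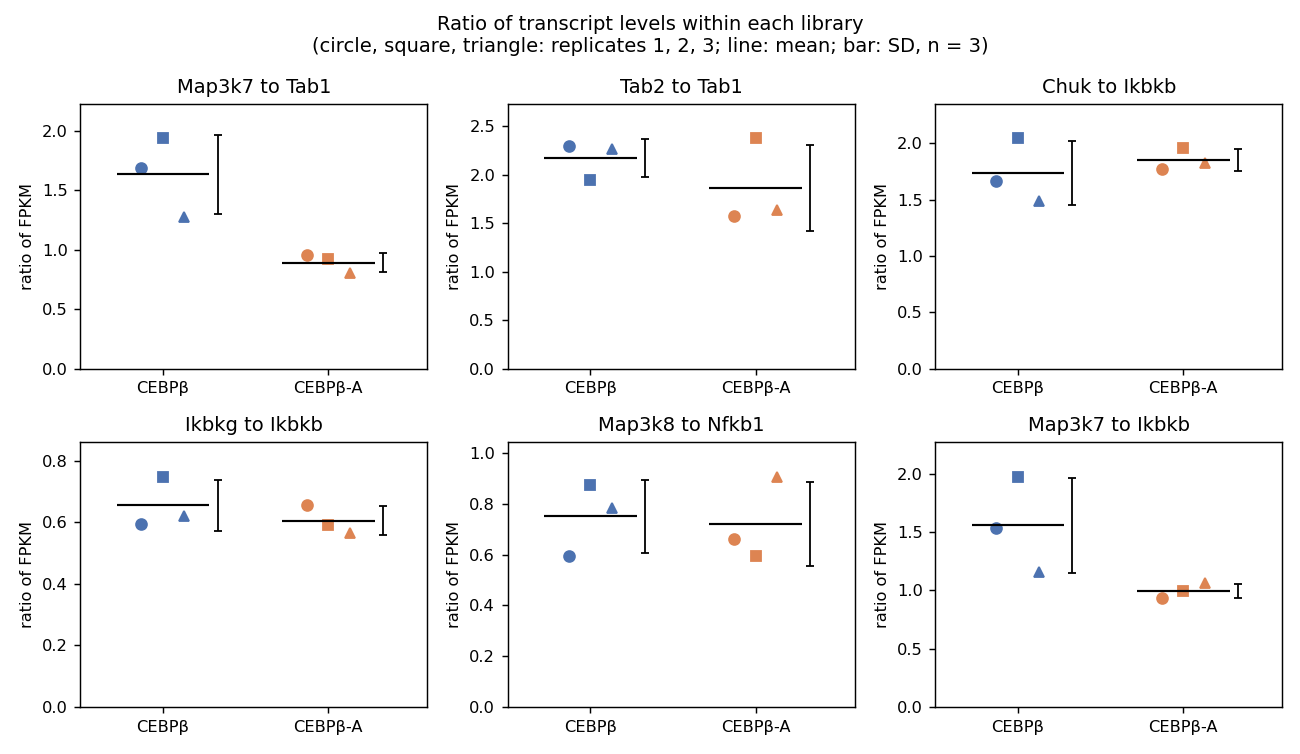
Ratio of FPKM between 2 transcripts (vertical axis, from 0) in each of the 3 CEBPβ and 3 CEBPβ-A libraries; symbols mark replicates, lines the means and bars the SD (n = 3). Map3k7 to Tab1 lies between 0.800 and 0.957 in CEBPβ-A and between 1.27 and 1.94 in CEBPβ; of the other 5 ratios, Map3k7 to Ikbkb also does not overlap.

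Transcript length moved with the differences across all genes. The longer the transcript, the lower its fold change tended to be (Spearman rho −0.43 over 9570 genes with a length, and −0.26 without CEBPβ-A replicate 3; genes are not independent replicates). Map3k7 has the highest median length of coding transcripts of the 8, 5580 bases in GENCODE M21. The 381 tested genes within 10% of that length had a median log2 fold change of −0.14, against −0.63 for Map3k7. With the trend on length subtracted in each library, the value of Map3k7 was −0.49 (limma adjusted p = 0.663). Without CEBPβ-A replicate 3, the library farthest from the rest, it was −0.63 (limma adjusted p = 0.805). Map3k14, the next longest with 4246 bases, had a log2 fold change of 0.023 where genes of its length had a median of −0.092.

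**Figure D4:**
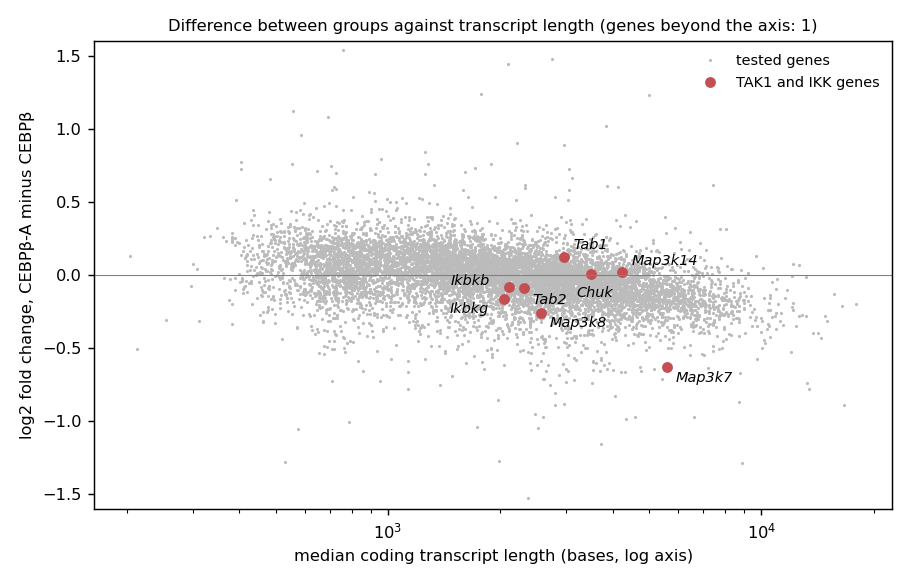
Log2 fold change (vertical axis, CEBPβ-A minus CEBPβ) against median coding transcript length (horizontal log axis, bases) for tested genes (grey) and the 8 kinase complex genes (red); 1 gene lies beyond the vertical axis. Map3k7, at 5580 bases and −0.63, lies below the median of genes of its length, −0.14.

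Map3k7, the member with the smallest p, was also compared with every other tested gene by the Pearson correlation of log2(FPKM + 1) over the 6 libraries. The 5 genes most like it were Cd24a (r = 0.994), Lnpk (0.992), Zbtb42 (0.983), Wipi1 (0.975) and Gse1 (0.975). The heat-stable antigen gene Cd24a had 72.9, 77.8 and 57.6 FPKM in CEBPβ replicates 1, 2 and 3 and 53.5, 55.6 and 53.9 in CEBPβ-A replicates 1, 2 and 3. It shares with Map3k7 the low CEBPβ replicate 3 and the level CEBPβ-A libraries. The log2 fold changes of the 5 ran from −0.72 (Zbtb42) to −0.17 (Wipi1), and none passed (limma adjusted p = 0.588 for each). With 6 points that share libraries and 9617 genes searched, such values are a description.

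Around the 8 genes, 97 others of the pathway were examined, of which 84 were tested. None passed the threshold, which 0.052% of all tested genes did, and 14 had an unadjusted p under 0.05, all of them lower in CEBPβ-A (16.7% of the 84, where 4.42% of all tested genes had such a p in that direction and 8.18% in either). Their median log2 fold change was −0.079, with 26 positive and 58 negative. The groups did not overlap for 14 downward and 2 upward, where 8.86% and 7.89% of all tested genes did so. Of the 14 downward, 10 belong to the list of transcripts induced through IKK. Outside that list 4 of 68 tested genes (5.88%) were separated downward, 4 had an unadjusted p under 0.05, and the median was −0.047.

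Of the other TAK1 genes, the phosphatase Ppm1b stood at 11.2 ± 1.23 FPKM in CEBPβ-A and 12.02 ± 0.354 in CEBPβ (log2 fold change −0.10, limma adjusted p = 0.699). Among the 12 IKK subunits, chaperones and IKK-related kinases the median was −0.038 and 0 passed. The adaptor Azi2 had −0.18, the IKK-related kinase Ikbke −0.16 and Hsp90ab1, a chaperone of IKK and the most abundant of the list at 390 ± 29.7 against 398 ± 22.2 FPKM, −0.029. The sign of Hsp90ab1 turned with 2 single libraries left out.

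Genes that control NIK and the non-canonical branch had a median of −0.10 over 7 genes. The ubiquitin ligase Birc3, which keeps NIK low, stood at 7.78 ± 0.756 FPKM in CEBPβ-A and 10.3 ± 0.417 in CEBPβ, without overlap (log2 fold change −0.37, limma adjusted p = 0.588). Its partner Traf3 stood at 3.47 ± 1.07 and 5.50 ± 1.52 FPKM, with overlap (−0.54, limma adjusted p = 0.588), and the subunit Relb had −0.25. With single libraries left out Traf3 ran from −0.72 to −0.37. The median length of its coding transcripts is 6934 bases. The most abundant of this list, Nfkb2, had −0.10. In the TPL2 complex Nfkb1 stood at 12.1 ± 0.808 against 14.1 ± 0.783 FPKM, also without overlap (−0.21, limma adjusted p = 0.588), while the stabilising partner Tnip2 had 0.030.

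Upstream, the 14 adaptors and ubiquitin enzymes had a median of 0.018, with 8 positive and 6 negative and no separated gene. Ube2v1, which works with Ube2n to build the chains that TAB2 reads, had the largest value, 0.85, but CEBPβ-A replicate 3 alone stood at 28.8 FPKM and without it the log2 fold change was 0.26. The ligase Traf6 had −0.22, Traf5 −0.16 and Myd88, the most abundant at 27.1 ± 0.627 against 26.3 ± 0.928 FPKM, 0.045, which turned to −0.0039 with the length trend removed. Of 10 deubiquitinases and brakes 8 were negative (median −0.12). Usp18, which removes the ubiquitin-like protein ISG15, had −0.78, the A20 partner Tnip1 −0.14 and the linear chain protease Otulin 0.18. The groups did not overlap for these 3, and none passed (limma adjusted p = 0.588 each). Usp18 was −0.47 without CEBPβ-A replicate 3.

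Among 8 tested members of the MAP3K family outside the complexes the median was −0.10, with Map3k5 at −0.18, Map3k2 at −0.29, Map3k1 at −0.19 and Map3k11, the most abundant, at 0.077. Without CEBPβ-A replicate 3 these were −0.087 for Map3k5, −0.13 for Map3k2, −0.0095 for Map3k1 and 0.029 for Map3k11, and Map3k2 was −0.043 with the length trend removed. Of 12 tested MAP2K and MAPK genes below TAK1 and TPL2 the median was −0.018. The JNK gene Mapk9 had −0.18, the JNK kinase gene Map2k7 0.22 and Mapk3, the most abundant at 216 ± 33.7 against 199 ± 34.8 FPKM, 0.12. Map2k7 was 0.030 without CEBPβ-A replicate 1. Without CEBPβ-A replicate 3 Mapk9 was −0.086 and the sign of Mapk3 turned, and Mapk9 was −0.064 with the length trend removed.

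Below IKK, the 10 genes of IκB, Rel and other IKK substrates had a median of −0.12, with 8 negative; Rel had −0.32 and Nfkbia, the gene of IκBα, −0.0058, a value whose sign depended on the scaling. Rel was −0.14 without CEBPβ-A replicate 3 and −0.13 with the length trend removed. The list of transcripts induced through IKK had the lowest median, −0.37 over 16 tested genes, with 15 negative and 10 separated downward against 8.86% of all genes. None passed (smallest limma adjusted p = 0.0738), and 10 had an unadjusted p under 0.05, all lower, where 4.42% of all tested genes did so. Cxcl2, a neutrophil chemokine, had 14.6, 13.8 and 14.7 FPKM in CEBPβ replicates 1, 2 and 3 and 9.26, 8.31 and 8.02 in CEBPβ-A replicates 1, 2 and 3 (log2 fold change −0.69, limma adjusted p = 0.0738). Nfkbiz had −0.60 and Ccl3 −0.52. This list was written with earlier results of these data known and is no independent evidence of its direction.

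**Figure D5:**
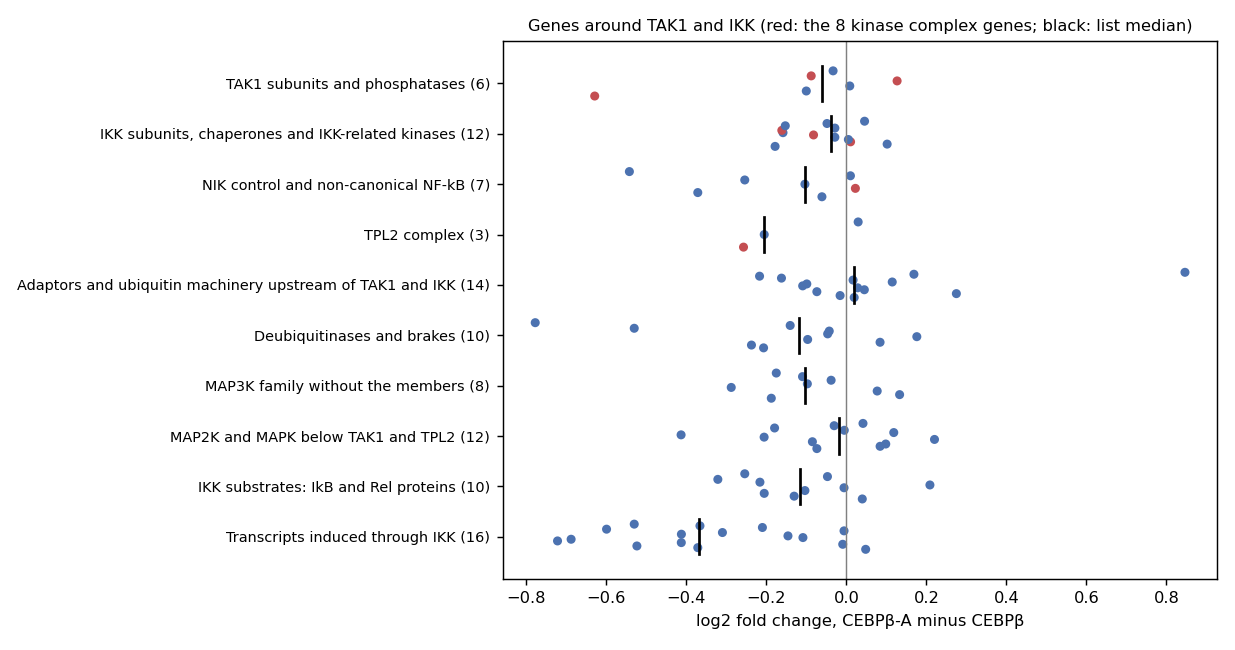
Log2 fold change (horizontal axis, CEBPβ-A minus CEBPβ) of each tested gene in 10 lists around TAK1 and IKK (rows, with the number tested); red points are the 8 kinase complex genes and black bars list medians. The transcripts induced through IKK have a median of −0.37, and the medians of the other 9 lists lie between −0.21 and 0.018.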

How the data were processed

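The authors deposited 1 table of FPKM values for 6 libraries, per the file headers. GRCm38 is the genome build per the submitters' processing notes. An aligner, an FPKM program, an annotation release and a rule for listing genes were not given in the sources used here. Libraries were stranded, made from total RNA with a KAPA kit, per the labels' protocols. Low FPKM values multiplied by transcript length showed no clear whole-read steps (periodicity at most 0.169, where 1 marks exact steps), so depth is unknown and no counting interval is given. The column totals lay between 278907 and 313215 FPKM.

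Genes with a mean of at least 1 FPKM (9617 of 10539) were put on log2(FPKM + 1), which understates changes of low genes, and fitted with limma 3.58.1 (R 4.3.3, intensity trend, no covariate), two-sided, Benjamini-Hochberg adjusted over all 9617. The fit was run on simulated data with independent normal noise, no length trend and no outlying library. Those data held no added change of the size seen in Map3k7, so they do not show how such a difference is recovered. Ratios were tested by exact permutation. Gene lengths and overlaps come from GENCODE M21, whose identifiers gave a length to 9570 tested genes. RefSeq promoter windows of 5 of the 8 genes were used. Map3k8 was not searched for, because windows on its chromosome, 18, were left out.

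The 8 genes, the 10 pathway lists, the marker lists and the ratios were chosen with earlier results of these data known. Named are all 8 genes and, per pathway list, genes past the threshold, the 3 with the smallest p and the most abundant; per marker list the 2 most abundant; and the 5 genes most correlated with the member of smallest p. The alternatives were other pseudocounts, filters, scalings and variance models, a replicate block and each library left out. Removal of the length trend was added after the data were seen. Some genes that this rule names are not reported here.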

Additional observations from a re-analysis of the deposited data

How the results depend on the processing

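The count of 0 among the 8 kinase complex genes held in all 17 alternatives. Over all genes, 5 passed, against 0 with a mean FPKM of at least 5, 2 after quantile normalization and 1 to 9 with single libraries left out (1 without CEBPβ-A replicate 1, 2 without CEBPβ replicate 3, 9 without CEBPβ-A replicate 3). With the replicate number as a block 1 gene passed and Map3k7 had limma adjusted p = 0.372. Deviations of same-numbered libraries correlated at 0.0993, 0.247 and 0.259, each library best with its own number, which is a hint of pairing from the data, not from the design.

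Map3k7 ranged from −0.82 to −0.49 over the alternatives and Map3k8 from −0.38 to −0.17. Of 719 values of named genes and ratios under alternatives 700 kept direction and, for genes, the call. For the ratios only the direction was compared, since no ratio can pass. Of the rest, 17 changed sign and 2 came to pass. These 2 were Cxcl2 with the length trend removed (−0.72, limma adjusted p = 0.0431, range over single libraries left out 0.102 to 0.413) and Ccl3 without CEBPβ-A replicate 3 (−0.62, limma adjusted p = 0.0499, 0.855 at most with others left out). With single libraries left out, ranges that crossed 0 were −0.099 to 0.085 for Chuk, −0.25 to 0.071 for Tab2, −0.061 to 0.096 for Map3k14, −0.091 to 0.014 for Hsp90ab1, −0.0048 to 0.26 for Mapk3, −0.064 to 0.047 for Nfkbia and −0.022 to 0.062 for Tnip2. The ratios did so at −0.0032 to 0.21 (Chuk to Ikbkb), −0.14 to 0.0044 (Ikbkg to Ikbkb) and −0.21 to 0.065 (Map3k8 to Nfkb1). Nfkbia was 0.011 with median-of-ratios scaling and Myd88 −0.0039 with the length trend removed. The cause was not tested. Ikbkg and Map3k14 have no value at a mean FPKM of at least 5. Depth is unknown, and 3 libraries a group limit what can pass.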
